A study of Mus musculus with 6 samples.

Results

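Solute carriers are membrane proteins that move nutrients, ions, metals, metabolites and drugs into cells, out of them, or across the membranes of organelles. The genes described here are the solute carrier genes that varied over the 6 arrays of the series, compared between 2 kinds of cultured mouse T cells. A gene was taken when its symbol begins with Slc and at least 1 of its probe sets, measured under that single symbol, had a maximum minus minimum of 1 or more over the 6 arrays on the log2 scale. The rule leaves out 7 genes by name (Slc2a1, Slc2a3, Slc16a3, Slc7a11, Slc7a5, Slc3a2 and Slc7a1). It gave 68 genes of 362 measured solute carrier genes and of 18193 genes in all. The other 287 solute carrier genes had no probe set with that range. The range over all 6 arrays chose the genes, so their wide range is not a result. A wide range also makes a difference between the groups more likely, so their counts are read against the 4060 genes with such a probe set as well as against all genes. At the limit, Slc35a3, Slc25a11 and Slc35d1 entered with ranges of 1.0001, 1.0008 and 1.0017, and Slc29a1, Slc6a17 and Slc9a3r1 stayed out with ranges of 0.9988, 0.9954 and 0.9890.

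The 3 arrays titled 2D11 (replicates 1, 2 and 4) hold cells labelled CD8aa Tregs, regulatory T cells that carry the CD8 alpha homodimer and that the series title describes as restricted by the class Ib molecule Qa-1. The 3 arrays titled OvacD8 (replicates 1, 2 and 3) hold cells labelled OT-1 CD8aa+TCRab+ T cells, and OT-1 names a transgenic receptor for an ovalbumin peptide. All 6 samples are given as T cell clones that were cultured with the antigen of each line, antigen-presenting cells and IL-2. The labels give no mouse strain, age or time after stimulation, and they do not say whether replicates were separate cultures. If replicates are repeats of a single line, the p-values describe technical spread between the arrays and no more.

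T cells take up glucose, amino acids, iron, zinc and phosphate through solute carriers when they are activated and divide. Other solute carriers sit in lysosomes, in the Golgi apparatus, where they supply sugar nucleotides for glycoproteins, or in the inner mitochondrial membrane, where they exchange metabolites with the cytosol. Zinc transporters fall into the Slc30 family, which moves zinc out of the cytosol, and the Slc39 family, which moves it in. The Slc37 family holds sugar phosphate transporters.

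Promoter sequence is shown for the members of the Slc37 family that differed most, which went in opposite directions, and for Slc20a1 and Slc30a4, which were lower in 2D11 cells by more than 2-fold. The sequences are from RefSeq on GRCm38.p6, 5′ to 3′ on the gene's strand, from 250 bases before to 50 after the first start listed. Capitals mark matches on either strand to CACGTG (E-box), to TGCACNC or TGCGCNC (the core of metal response elements), to TGATGNAA (the amino acid response element), to GGGCGG (GC box) or to TGACGTCA (cyclic AMP response element). Matches may overlap each other.

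The gene Slc37a1 is on the plus strand at chr17:31295974-31296273, with 1 GC box and 1 metal response core.
Slc37a1: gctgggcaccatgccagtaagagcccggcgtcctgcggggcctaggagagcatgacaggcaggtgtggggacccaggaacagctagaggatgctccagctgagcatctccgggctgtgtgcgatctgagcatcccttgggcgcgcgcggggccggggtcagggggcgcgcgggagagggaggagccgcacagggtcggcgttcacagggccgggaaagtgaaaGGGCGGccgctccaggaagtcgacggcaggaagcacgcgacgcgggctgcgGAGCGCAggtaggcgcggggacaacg
The gene Slc37a3 is on the minus strand at chr6:39377658-39377957, with 1 E-box and 1 GC box, and RefSeq lists 2 starts for it.
Slc37a3: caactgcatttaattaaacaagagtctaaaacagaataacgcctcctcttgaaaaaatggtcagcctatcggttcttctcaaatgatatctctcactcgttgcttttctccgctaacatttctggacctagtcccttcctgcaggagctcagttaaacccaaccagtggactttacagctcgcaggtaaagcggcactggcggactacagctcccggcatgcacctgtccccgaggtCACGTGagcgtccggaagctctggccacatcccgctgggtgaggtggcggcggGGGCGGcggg
The gene Slc37a2 is on the minus strand at chr9:37255689-37255988, with 0 matches.
Slc37a2: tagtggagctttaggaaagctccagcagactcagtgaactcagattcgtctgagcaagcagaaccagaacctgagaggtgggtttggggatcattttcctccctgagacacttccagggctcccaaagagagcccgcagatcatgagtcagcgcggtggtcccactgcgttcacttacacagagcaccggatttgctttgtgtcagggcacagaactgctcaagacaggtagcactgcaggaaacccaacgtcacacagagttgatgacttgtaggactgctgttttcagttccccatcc
The gene Slc20a1 is on the plus strand at chr2:129198523-129198822, with 2 E-boxes, 1 metal response core and 2 GC boxes, and RefSeq lists 2 starts for it.
Slc20a1: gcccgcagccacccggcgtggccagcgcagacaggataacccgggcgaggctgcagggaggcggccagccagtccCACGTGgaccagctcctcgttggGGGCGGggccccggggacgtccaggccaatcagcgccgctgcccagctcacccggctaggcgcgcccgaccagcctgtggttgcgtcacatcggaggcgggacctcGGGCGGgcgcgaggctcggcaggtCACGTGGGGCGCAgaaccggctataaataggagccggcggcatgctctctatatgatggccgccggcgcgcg
The gene Slc30a4 is on the minus strand at chr2:122702614-122702913, with 3 metal response cores and 3 GC boxes, some of them overlapping.
Slc30a4: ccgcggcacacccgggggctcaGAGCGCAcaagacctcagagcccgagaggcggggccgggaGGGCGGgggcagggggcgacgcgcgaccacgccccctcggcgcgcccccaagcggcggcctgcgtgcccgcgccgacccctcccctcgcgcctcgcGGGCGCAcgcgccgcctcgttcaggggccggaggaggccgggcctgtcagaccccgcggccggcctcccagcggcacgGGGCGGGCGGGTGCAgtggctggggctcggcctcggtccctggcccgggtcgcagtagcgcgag

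Of the 68 genes, 51 had a promoter in the RefSeq table, and the first start listed was searched. CACGTG was in 9 of them (17.6%), in 12.2% of 229 other solute carrier promoters and in 7.2% of all 32851 promoters of the table. The metal response core was in 22 (43.1%), against 29.3% and 25.7%. GGGCGG was in 38 (74.5%), against 55.0% and 35.7%. TGATGNAA was in 2 (3.9%), against 3.9% and 4.0%, and TGACGTCA was in 2 (3.9%), against 0.4% and 1.8%. These shares describe letters in a window and were not tested.

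The deposited log2 values had been centred on the median of the 6 arrays for each probe set. A value above 0 therefore says that an array stood above the middle of the 6, not that the gene was highly expressed, and levels of different genes cannot be compared. Fewer cells of a type and less RNA per cell cannot be told apart in such samples. OvacD8 replicate 1 stood apart from its group: over probe sets spanning at least 0.1 it correlated with OvacD8 replicates 2 and 3 at r = 0.293 and 0.343, while those correlated at 0.856 with each other. The 2D11 arrays correlated at 0.610 to 0.668. These r values are across probe sets, which are not independent replicates. The poly-A spike-in controls added to the RNA also split the OvacD8 arrays: their mean over 27 probe sets was -0.09, 0.10 and 0.73 on 2D11 replicates 1, 2 and 4, and 0.44, -1.41 and -2.13 on OvacD8 replicates 1, 2 and 3. Of the T cell markers, Cd8b1, which encodes the CD8 beta chain, was lower in 2D11 cells by 2.36 ± 0.11 (SE, adjusted p = 0.00093). The other 6 measured T cell markers (Cd3e, Cd3d, Cd3g, Cd8a, Cd5 and Cd2) did not pass, and the largest difference among them was that of Cd3d, at -0.73 ± 0.16 (adjusted p = 0.0724). Cd8a had -0.26 ± 0.11 as the mean of its probe sets, the widest of which spanned 3.33 over the 6 arrays. The mean of the T cell list was -0.09, -0.23 and -0.23 on 2D11 replicates 1, 2 and 4, and 0.09, 0.24 and 0.24 on OvacD8 replicates 1, 2 and 3. Whether a marker is present cannot be read from centred values.

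Of the 68 genes, 11 passed the limma test at an adjusted p under 0.05, with p-values adjusted over all 18193 genes. That is 16.2% of them, beside 6.67% of all genes and 22.4% of the 4060 genes that had a probe set spanning at least 1. The share was thus below that of genes of like range. In 2D11 cells 4 were higher (5.88%, beside 3.3% of all genes and 10.3% of genes of like range) and 7 were lower (10.3%, beside 3.37% and 12%). A difference of at least 2-fold came with the call in 4 (5.88%, beside 2.6% and 11.7%), and all 4 were lower: the urea transporter Slc14a1, the mitochondrial carrier Slc25a53, the phosphate transporter Slc20a1 and the zinc transporter Slc30a4. The groups did not overlap in 39 of the 68 (57.4%, beside 23.3% of all genes and 57.1% of genes of like range). The difference was above 0 in 27 of the 68 and below 0 in 41. It was above 0 in 11587 and below 0 in 6606 of all genes. Over the 4060 genes of like range these counts were 1962 and 2098. The median difference of the 68 was -0.20, beside 0.01 over all genes and -0.04 over genes of like range. The balance of signs was not tested. An unadjusted p under 0.05 was found for 35 of the 68 (51.5%) and for 19.9% of all genes. This share was not counted over genes of like range, so the gap is not read as a result about these genes. When the widest probe set stood for each gene, 10 passed (beside 5.69% of all genes and 19.4% of genes of like range), 4 higher (2.69% and 8.57%) and 6 lower (3.01% and 10.8%). Of these 10, 6 differed by at least 2-fold (3.56% and 16%), and the groups did not overlap in 40 of the 68 (23.3% and 56.8%). Of the 287 solute carrier genes with less range, 5 passed (1.74%), none by 2-fold: Slc16a6, Slc10a7 and Slc26a2 were higher and Slc25a5 and Slc23a2 were lower.

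**Figure D1:**
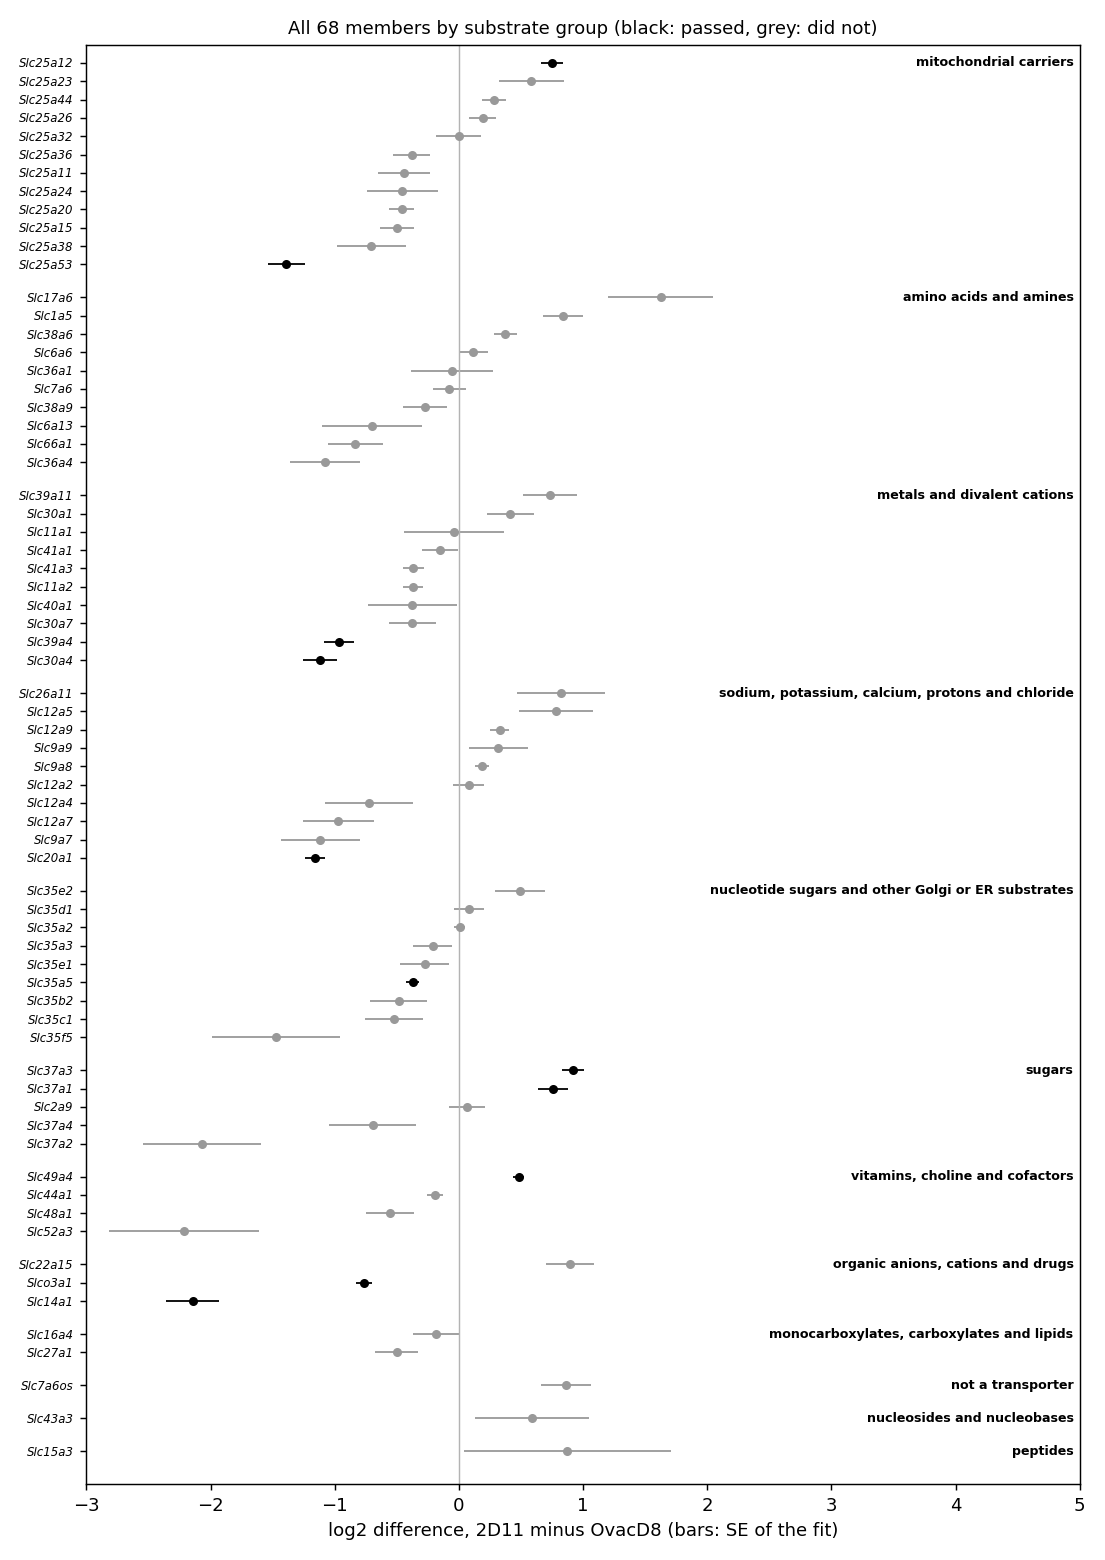
Difference between the groups for the 68 variable solute carrier genes (log2, mean of 2D11 minus mean of OvacD8 with the standard error of the fit, 3 arrays each), grouped by substrate, black where the gene passed and grey where it did not. The differences run from -2.21 for Slc52a3 to 1.63 for Slc17a6, and several of the widest ones, among them these, carry wide errors and did not pass.

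Leaving out OvacD8 replicate 1 gave 34 of the 68 that passed (50%), with all 11 kept, beside 17.2% of all genes and 52.4% of genes of like range. Of these, 15 were higher (22.1% of the 68, beside 7.8% of all genes and 21.4% of genes of like range) and 19 were lower (27.9%, beside 9.4% and 31%). A difference of at least 2-fold was found in 16 of the 68 (23.5%, beside 5.24% and 23.5%). These shares were near those of genes of like range. The 23 genes that gained a call were Slc12a4, Slc12a5, Slc12a7, Slc12a9, Slc15a3, Slc17a6, Slc1a5, Slc25a15, Slc25a24, Slc26a11, Slc27a1, Slc30a1, Slc35f5, Slc36a4, Slc37a2, Slc37a4, Slc38a6, Slc39a11, Slc48a1, Slc52a3, Slc66a1, Slc7a6os and Slc9a9. Leaving out any other array left 6 or 7 that passed (8.82% to 10.3%), beside 2.87% to 3.83% of all genes. The share of all genes thus also fell, from 6.67% with all 6 arrays. Shares over genes of like range were not counted for these fits. Of the 11, 5 passed in each of the 6 fits that left out an array: Slc14a1, Slc20a1, Slco3a1, Slc37a3 and Slc49a4. The other 6 lost the call in at least 1 of them, as given beside each.

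Counts by substrate group are small, and stand beside the 6.67% of all genes and 22.4% of genes of like range that passed. They are not read as results about a group. The phosphate, chloride and sodium transporters held 1 gene that passed among 10, out of 54 measured. It was Slc20a1, the sodium-coupled phosphate importer PiT1, which brings inorganic phosphate into most cells. Slc20a1 had -0.45, -0.58 and -0.52 on 2D11 replicates 1, 2 and 4, against 0.56, 0.81 and 0.56 on OvacD8 replicates 1, 2 and 3. Every 2D11 array was low and every OvacD8 array high, with no overlap. The difference was -1.16 ± 0.08 (SE, n = 3 per group, adjusted p = 0.00313), which is 2.23-fold lower in 2D11 cells. It rests on 1 of the 3 probe sets of the gene, which differed by -3.54, while the other two differed by -0.10 and 0.16.

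The cation-chloride cotransporters of the Slc12 family help to set cell volume and chloride, and 5 of them varied without passing. Slc12a4 and Slc12a7, the potassium-chloride cotransporters KCC1 and KCC4, had differences of -0.72 ± 0.35 and -0.97 ± 0.29 (adjusted p = 0.374 and 0.148). On OvacD8 replicates 2 and 3 Slc12a4 had 0.90 and 0.98 and Slc12a7 had 0.91 and 0.93, whereas OvacD8 replicate 1 had -0.15 and 0.09. Both were called lower without that array (adjusted p = 0.0241 and 0.0200). Slc12a5, the potassium-chloride cotransporter KCC2 of neurons, had 0.21, 0.21 and 0.22 on 2D11 replicates 1, 2 and 4, against -1.24, -0.25 and -0.22 on OvacD8 replicates 1, 2 and 3. The groups did not overlap and OvacD8 replicate 1 was far lowest. The difference of 0.78 ± 0.30 had an adjusted p of 0.245, against 0.00131 without that array. It rests on 1 of the 2 probe sets of Slc12a5, at 1.60, while the other gave -0.03. Slc12a9 had a difference of 0.33 ± 0.08 (adjusted p = 0.0850), and Slc12a2, the sodium-potassium-chloride cotransporter NKCC1, of 0.08 ± 0.12. The 3 probe sets of Slc12a2 disagreed in sign, at -0.51 and 0.56, each without overlap, and at 0.20 with overlap.

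The Slc9 sodium-proton exchangers of the Golgi apparatus and endosomes differed in direction, and none passed. Slc9a7 had a difference of -1.11 ± 0.32 (adjusted p = 0.133), with OvacD8 replicate 3 at 0.18 beside 0.85 and 1.34 on OvacD8 replicates 1 and 2. Slc9a8 and Slc9a9 had differences of 0.19 ± 0.06 and 0.32 ± 0.24. The sulfate transporter Slc26a11 had 0.00, 0.14 and 0.00 on 2D11 replicates 1, 2 and 4, against 0.00, -1.06 and -1.26 on OvacD8 replicates 1, 2 and 3. Its OvacD8 replicate 1 lay at the level of 2D11, and the difference of 0.82 ± 0.35 did not pass (adjusted p = 0.300). Without that array Slc26a11 and Slc9a9 were called higher in 2D11 cells, at 1.21 and 0.58 (adjusted p = 0.00297 and 0.00684).

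The group of organic anion, cation and drug transporters had 40 measured genes, of which 3 varied and 2 passed. Slc14a1, the urea transporter of red cells and kidney, had the largest difference among the genes that passed. Slc14a1 had -0.88, -0.93 and -1.03 on 2D11 replicates 1, 2 and 4, against 1.64, 1.08 and 0.86 on OvacD8 replicates 1, 2 and 3. The groups lay far apart, with OvacD8 replicate 1 highest. The difference was -2.14 ± 0.21 (adjusted p = 0.00865), 4.42-fold lower in 2D11 cells, and its 2 probe sets gave -2.16 and -2.13. Of the erythroid marker list, 4 of 7 genes were measured, each with a range under 1, and the mean of the list lay between -0.01 and 0.09 on the 6 arrays.

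Slco3a1, which carries prostaglandins and other organic anions, had -0.45, -0.28 and -0.42 on 2D11 replicates 1, 2 and 4, against 0.29, 0.46 and 0.38 on OvacD8 replicates 1, 2 and 3. All 3 of its probe sets were lower in 2D11 cells, by 0.61 to 0.94, and none of them overlapped between the groups. The difference was -0.76 ± 0.07 (adjusted p = 0.00549). Its widest probe set, tested in place of the mean, had an adjusted p of 0.0823. The third of the group, the organic cation transporter relative Slc22a15, had a difference of 0.89 ± 0.19 without overlap (adjusted p = 0.0713).

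Metal transporters were the group in which zinc genes passed, both lower: 2 of 10 that varied, out of 34 measured. Slc30a4 loads zinc into vesicles and, in mammary gland, into milk. Slc30a4 had -0.62, -0.41 and -0.39 on 2D11 replicates 1, 2 and 4, against 0.39, 0.84 and 0.70 on OvacD8 replicates 1, 2 and 3. The groups did not overlap, and the difference was -1.12 ± 0.14 (adjusted p = 0.0149), 2.17-fold lower in 2D11 cells. It passed in 1 of the 6 fits that left out an array, the one without OvacD8 replicate 1, and its adjusted p reached 0.0661 without OvacD8 replicate 3.

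Slc39a4 is a zinc importer of the plasma membrane, known from the gut. Slc39a4 had -0.54, -0.33 and -0.44 on 2D11 replicates 1, 2 and 4, against 0.73, 0.54 and 0.33 on OvacD8 replicates 1, 2 and 3. No arrays overlapped, and the difference was -0.97 ± 0.12 (adjusted p = 0.0157). The call was lost without OvacD8 replicate 2 (0.0766) and without each of the 2D11 arrays, and kept without OvacD8 replicates 1 or 3. An exporter and an importer of cytosolic zinc were thus both lower in 2D11 cells.

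The other zinc genes did not pass. Slc30a1, the zinc exporter of the plasma membrane, had 0.09, -0.02 and 0.12 on 2D11 replicates 1, 2 and 4, against 0.05, -0.65 and -0.44 on OvacD8 replicates 1, 2 and 3, a difference of 0.41 ± 0.19 (adjusted p = 0.335). Slc39a11 had 0.29, 0.41 and 0.05, against -0.05, -0.72 and -0.68, a difference of 0.73 ± 0.22 (adjusted p = 0.147). In both, OvacD8 replicates 2 and 3 were low and OvacD8 replicate 1 lay near 2D11, and both passed without it, as higher in 2D11 cells (adjusted p = 0.0179 and 0.0131). Slc30a7, which loads zinc into the Golgi apparatus, had a difference of -0.38 ± 0.19 (adjusted p = 0.388). Its 2 probe sets disagreed in sign, at -1.14 without overlap and at 0.38 with overlap. The zinc-binding metallothioneins Mt1 and Mt2 had differences of -1.12 ± 0.39 and -1.96 ± 0.81 (adjusted p = 0.199 and 0.283). The 2 probe sets of Mt1 gave -2.21 and -0.02. Mt2 lay between -0.42 and 0.06 on the 2D11 arrays and OvacD8 replicate 1, and at 2.54 and 2.69 on OvacD8 replicates 2 and 3.

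**Figure D2:**
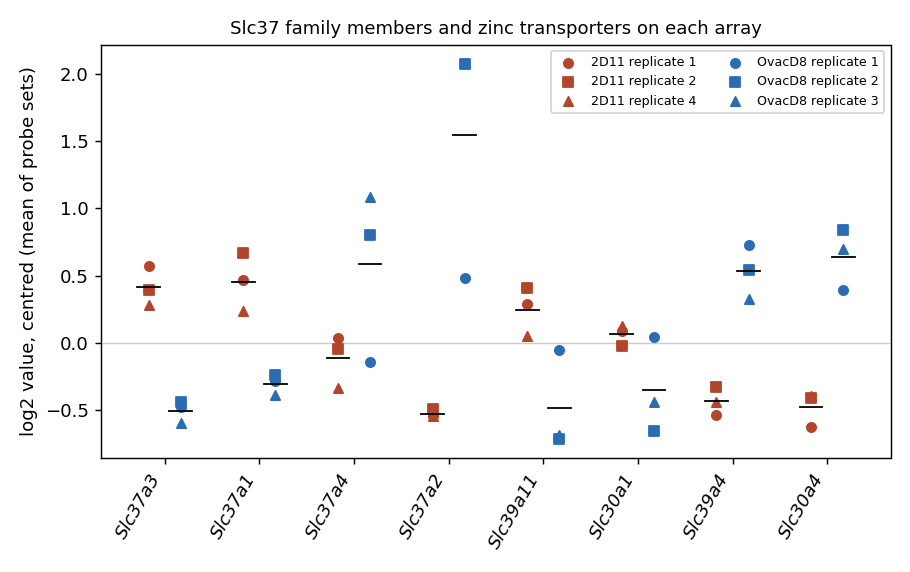
Centred log2 values (mean of the probe sets of a gene) on each array for the Slc37 sugar phosphate transporters and 4 zinc transporters, with 2D11 in red left of OvacD8 in blue, a shape for each replicate and a bar at each group mean. Slc37a3 and Slc37a1 are higher in 2D11 and Slc39a4 and Slc30a4 lower, without overlap, while OvacD8 replicate 1 lies nearer to 2D11 than the other OvacD8 arrays for Slc37a4, Slc37a2, Slc39a11 and Slc30a1.

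Of the iron genes among the metal transporters, none passed, and Slc40a1 was high on a single array. Ferroportin, Slc40a1, exports iron from cells and is prominent in macrophages. Slc40a1 had 0.00, 0.04 and 0.00 on 2D11 replicates 1, 2 and 4, against 1.18, -0.02 and 0.00 on OvacD8 replicates 1, 2 and 3. OvacD8 replicate 1 alone was high, at 2.36 on the wider of the 2 probe sets. Slc11a1, the metal pump of the macrophage phagosome, had -0.12, 0.08 and 0.75, against 1.01, -0.11 and -0.08, and was thus high on OvacD8 replicate 1 and 2D11 replicate 4. Neither passed (adjusted p = 0.727 and 0.971). Slc11a2, the iron importer DMT1, had a difference of -0.37 ± 0.08 without overlap (adjusted p = 0.0686), and the magnesium transporters Slc41a1 and Slc41a3 of -0.15 ± 0.14 and -0.37 ± 0.09 (adjusted p = 0.721 and 0.0903).

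Of the macrophage markers, Csf1r and Mpeg1 were likewise highest on OvacD8 replicate 1, at 1.17 and 3.27, and Mpeg1 was next highest on 2D11 replicate 4, at 0.79. Cd68 and Cd14 went the other way within OvacD8. Cd68 had 0.48, 3.34 and 3.44 on OvacD8 replicates 1, 2 and 3, and Cd14 had 0.20, 0.66 and 0.75. Lyz2 had 0.49, -0.49 and 0.59 on 2D11 replicates 1, 2 and 4, against 2.70, -1.91 and -2.82 on OvacD8 replicates 1, 2 and 3. Over the whole list of 8 genes, of which 5 spanned at least 1, the mean was -0.06, -0.20 and 0.10 on the 2D11 arrays, and 0.98, 0.27 and 0.15 on the OvacD8 arrays. Adgre1, a defining macrophage marker, lay between -0.03 and 0.01 on the 6 arrays. The part of such cells in the values of Slc40a1, Slc11a1 and Slc15a3 was not tested.

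The sugar group had 5 varying genes of 27 measured, of which 2 passed, both of the Slc37 family and both higher in 2D11 cells. Slc37a3 had 0.57, 0.40 and 0.28 on 2D11 replicates 1, 2 and 4, against -0.48, -0.44 and -0.59 on OvacD8 replicates 1, 2 and 3. All 2D11 arrays were high and all OvacD8 arrays low. The difference was 0.92 ± 0.09 (adjusted p = 0.00752), 1.89-fold higher in 2D11 cells, with 0.52 and 1.32 from its 2 probe sets. Slc37a1 exchanges glucose-6-phosphate for phosphate. Slc37a1 had 0.47, 0.67 and 0.23, against -0.28, -0.23 and -0.38, without overlap and with 2D11 replicate 4 the lowest of its group. The difference was 0.76 ± 0.12 (adjusted p = 0.0303), lost without 2D11 replicates 1 (0.116) or 2 and without OvacD8 replicates 2 or 3.

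The other Slc37 genes lay in the other direction. Slc37a2, which also exchanges glucose-6-phosphate for phosphate and is known from macrophages, had -0.54, -0.49 and -0.54 on 2D11 replicates 1, 2 and 4, against 0.49, 2.07 and 2.08 on OvacD8 replicates 1, 2 and 3. The groups did not overlap, but OvacD8 replicate 1 stood far from the other two. The difference of -2.07 ± 0.48 had an adjusted p of 0.0815, against 6.56e-05 and a difference of -2.60 without OvacD8 replicate 1. Slc37a4, the glucose-6-phosphate transporter of the endoplasmic reticulum, had 0.04, -0.04 and -0.33, against -0.14, 0.80 and 1.09, a difference of -0.69 ± 0.35 (adjusted p = 0.384). It overlapped through OvacD8 replicate 1, and without that array it was lower in 2D11 cells (adjusted p = 0.0198). The urate transporter Slc2a9 had a difference of 0.07 ± 0.14.

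Mitochondrial carriers formed the largest group, with 12 varying genes of 42 measured, 1 higher and 1 lower. Slc25a12, the aspartate-glutamate carrier of the malate-aspartate shuttle, had 0.29, 0.48 and 0.34 on 2D11 replicates 1, 2 and 4, against -0.53, -0.27 and -0.34 on OvacD8 replicates 1, 2 and 3. The groups lay apart, and the difference was 0.75 ± 0.09 (adjusted p = 0.0133). It rests on 1 of 3 probe sets, at 2.25, while the others gave 0.17 and -0.17. The call was lost without OvacD8 replicate 3 (0.0558) or without any 1 of the 2D11 arrays.

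Slc25a53, a carrier with no known substrate, had -0.40, -0.88 and -0.87 on 2D11 replicates 1, 2 and 4, against 0.75, 0.56 and 0.72 on OvacD8 replicates 1, 2 and 3. The difference was -1.39 ± 0.15 (adjusted p = 0.0109), 2.62-fold lower in 2D11 cells, and 2D11 replicate 1 was the highest of its group. Its 2 probe sets disagreed in sign, at -3.12 and 0.34. Leaving out OvacD8 replicate 3 gave an adjusted p of 0.0525.

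**Figure D3:**
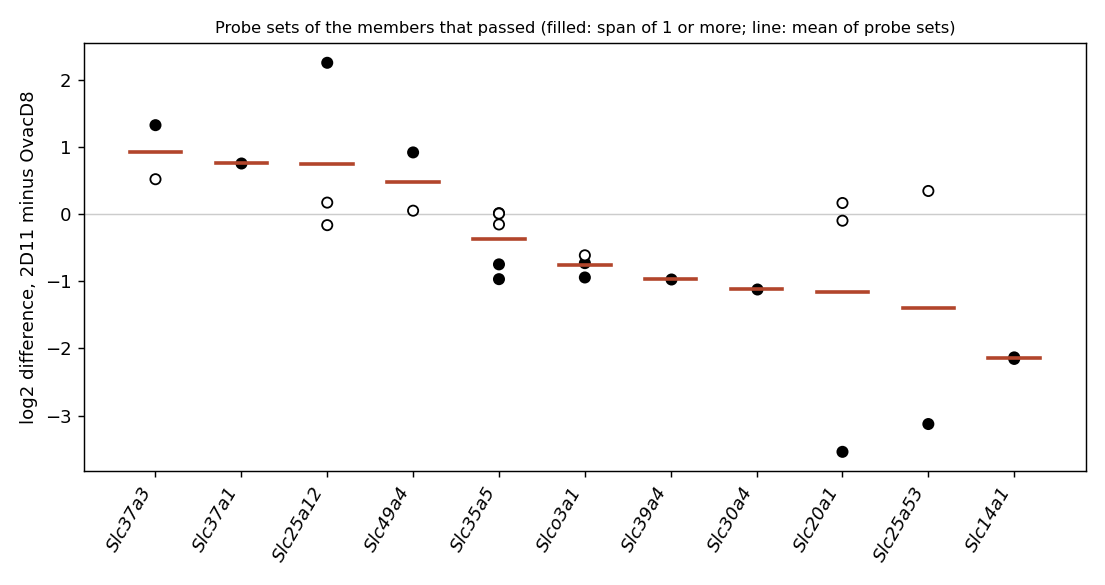
Difference between the groups (log2, 2D11 minus OvacD8) for each probe set of the 11 genes that passed, filled where the probe set spans 1 or more over the 6 arrays and open where it spans less, with a red line at the mean that was tested. For Slc20a1, Slc25a53 and Slc25a12 a single probe set at -3.54, -3.12 and 2.25 carries the difference, whereas both probe sets of Slc14a1 lie near the line.

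Of the 10 mitochondrial carriers that did not pass, 7 had differences at or below 0 and 3 above it. Slc25a38, a glycine carrier needed for heme synthesis, had the widest of them, at -0.70 ± 0.28. The ornithine carrier Slc25a15, the acylcarnitine carrier Slc25a20, the oxoglutarate carrier Slc25a11, the ATP-magnesium/phosphate carrier Slc25a24 and the pyrimidine nucleotide carrier Slc25a36 lay between -0.38 and -0.50. On OvacD8 replicate 1 Slc25a24 had -0.23, beside 0.81 and 0.59 on OvacD8 replicates 2 and 3, and Slc25a15 had 0.06 beside 0.41 and 0.54. Both passed without OvacD8 replicate 1, as lower in 2D11 cells (adjusted p = 0.00919 and 0.0140). Slc25a23, the sister of Slc25a24, had a difference of 0.58 ± 0.26, the branched-chain amino acid carrier Slc25a44 of 0.28 ± 0.10 and the S-adenosylmethionine carrier Slc25a26 of 0.19 ± 0.11. The folate and FAD carrier Slc25a32 had a difference of 0.00 ± 0.18.

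None of the 10 varying amino acid and amine transporters passed, out of 67 measured, and 5 of the 10 did not overlap between the groups, beside 57.1% of genes of like range. The widest range belonged to Slc17a6, the vesicular glutamate transporter of neurons. Slc17a6 had 0.95, 0.34 and 0.84 on 2D11 replicates 1, 2 and 4, against -1.76, -0.34 and -0.64 on OvacD8 replicates 1, 2 and 3. All 2D11 arrays were above all OvacD8 arrays, and OvacD8 replicate 1 was by far the lowest. The difference was 1.63 ± 0.42 (adjusted p = 0.109). Without OvacD8 replicate 1 it was smaller, at 1.20, and passed (adjusted p = 0.0364).

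Slc1a5, the exchanger that brings glutamine into activated T cells, had 0.36, 0.35 and 0.42 on 2D11 replicates 1, 2 and 4, against -0.14, -0.49 and -0.75 on OvacD8 replicates 1, 2 and 3. The 2D11 arrays were close together and above every OvacD8 array. Its difference of 0.84 ± 0.16 missed the threshold (adjusted p = 0.0512) and was 1.00 without OvacD8 replicate 1 (adjusted p = 0.00590). Slc36a4, a proline and tryptophan transporter, had -0.22, -0.38 and -0.27, against 0.22, 0.84 and 1.30, a difference of -1.08 ± 0.28 without overlap (adjusted p = 0.114). The lysosomal exporter of cationic amino acids Slc66a1 had -0.09, -0.35 and -0.51, against 0.09, 0.66 and 0.80, a difference of -0.83 ± 0.22 without overlap (adjusted p = 0.117). Both were lowest within OvacD8 on replicate 1 and passed without it (adjusted p = 0.0106 and 0.0162).

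Slc38a9, the lysosomal arginine sensor that signals to mTORC1, had a difference of -0.27 ± 0.18 over 7 probe sets, 3 of which spanned at least 1. Slc38a6 had a difference of 0.37 ± 0.10 without overlap (adjusted p = 0.103). The GABA transporter Slc6a13 lay between -0.07 and 0.01 on the 2D11 arrays and OvacD8 replicate 1, and at 1.51 and 0.55 on OvacD8 replicates 2 and 3. The taurine transporter Slc6a6, the proton-coupled transporter Slc36a1 and Slc7a6, a cationic amino acid exchanger that pairs with Slc3a2, had differences between -0.08 and 0.12. The 2 probe sets of Slc7a6 disagreed in sign, at -0.58 and 0.42, each without overlap. Slc7a6os, the neighbouring gene of Slc7a6 on chromosome 8, carries the prefix in its symbol but is no transporter. Slc7a6os had 0.18, 0.26 and 0.49, against -0.14, -0.74 and -0.78, a difference of 0.86 ± 0.20 without overlap (adjusted p = 0.0861). Its 2 probe sets gave 1.70 and 0.03.

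The transporters of nucleotide sugars and other Golgi substrates had 9 varying genes of 27 measured, of which 1 passed as lower. Slc35a5, an orphan of the Slc35 family, had -0.15, -0.29 and -0.16 on 2D11 replicates 1, 2 and 4, against 0.12, 0.24 and 0.16 on OvacD8 replicates 1, 2 and 3. The groups did not overlap, and the small difference of -0.37 ± 0.05 passed (adjusted p = 0.0238). Of its 5 probe sets, 2 spanned at least 1 and differed by -0.97 and -0.75. Leaving out any 1 array other than OvacD8 replicate 1 ended the call, with an adjusted p of up to 0.0880 without OvacD8 replicate 3.

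Slc35f5 had the largest difference of that group and did not pass. Slc35f5 had -0.50, -0.57 and -0.05 on 2D11 replicates 1, 2 and 4, against 0.05, 1.90 and 1.35 on OvacD8 replicates 1, 2 and 3. The difference was -1.47 ± 0.51 (adjusted p = 0.203), with OvacD8 replicate 1 close to 2D11 replicate 4, and it passed as lower without OvacD8 replicate 1 (adjusted p = 0.0137). The GDP-fucose transporter Slc35c1 and the transporter of the sulfate donor PAPS, Slc35b2, had differences of -0.52 ± 0.23 and -0.48 ± 0.23. The UDP-galactose, UDP-N-acetylglucosamine and UDP-glucuronic acid transporters Slc35a2, Slc35a3 and Slc35d1 and the orphan Slc35e1 lay between -0.28 and 0.08, and Slc35e2 had 0.49 ± 0.20.

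The group of vitamin, choline and cofactor transporters had 4 varying genes of 17 measured, of which 1 passed. Slc49a4, a protein of the lysosome, had 0.18, 0.24 and 0.21 on 2D11 replicates 1, 2 and 4, against -0.28, -0.19 and -0.34 on OvacD8 replicates 1, 2 and 3. The groups were tight and apart, with a difference of 0.48 ± 0.04 (adjusted p = 0.00682), from 0.92 and 0.05 on its 2 probe sets. Slc52a3, a riboflavin importer, had -0.66, -0.38 and -0.46, against 0.38, 2.31 and 2.44. Its difference of -2.21 ± 0.60 was the largest of the 68 genes but did not pass (adjusted p = 0.122). The groups did not overlap, and OvacD8 replicate 1 stood well below the other two of its group. It was -2.88 without that array (adjusted p = 0.000715). The heme transporter Slc48a1 and the choline transporter Slc44a1 had differences of -0.55 ± 0.19 and -0.19 ± 0.06, without overlap.

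The smallest groups held no gene that passed. Slc15a3, a lysosomal histidine and peptide transporter of immune cells, had 0.00, 0.00 and 0.07 on 2D11 replicates 1, 2 and 4, against 1.01, -1.77 and -1.79 on OvacD8 replicates 1, 2 and 3. The OvacD8 arrays lay on both sides of 2D11, and the difference was 0.87 ± 0.83 (adjusted p = 0.729). Without OvacD8 replicate 1 it was 1.80 (adjusted p = 0.000174). With the split by the spike-in controls as a term, which sets the 2D11 arrays against OvacD8 replicate 1, the direction turned, at -0.99 (adjusted p = 0.00228).

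Slc43a3, a transporter of purine nucleobases, had -0.03, 0.18 and 0.03 on 2D11 replicates 1, 2 and 4, against -1.52, 0.14 and -0.20 on OvacD8 replicates 1, 2 and 3. OvacD8 replicate 1 alone was low, and the difference was 0.59 ± 0.46 (adjusted p = 0.656). Slc27a1, a fatty acid transporter, had -0.10, -0.01 and -0.25, against 0.06, 0.69 and 0.39, a difference of -0.50 ± 0.17 without overlap (adjusted p = 0.203). Slc16a4, of the monocarboxylate transporter family, had a difference of -0.18 ± 0.19.

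**Figure D4:**
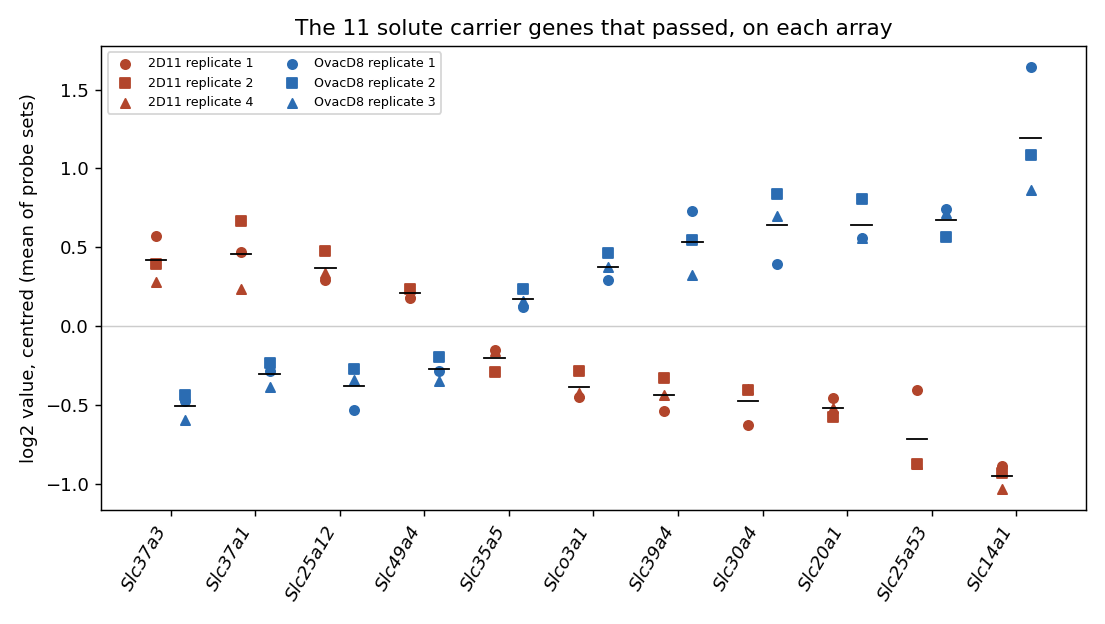
Centred log2 values (mean of the probe sets of a gene) on each array for the 11 variable solute carrier genes that passed, with 2D11 in red left of OvacD8 in blue, a shape for each replicate and a bar at each group mean. The groups do not overlap for any of the 11, and the widest gap is that of Slc14a1, with 2D11 between -1.03 and -0.88 and OvacD8 between 0.86 and 1.64.

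OvacD8 replicate 1 differed from the other OvacD8 arrays in many of these genes. The counts that follow were made over the 68 genes only, without a share over all genes or genes of like range. This array stood apart over the whole series, so the counts are not read as particular to solute carriers. On the widest probe set of each gene it lay at least 1 above both other OvacD8 arrays in 6 of the 68 (Slc11a1, Slc15a3, Slc26a11, Slc30a1, Slc40a1 and Slc9a9). It lay at least 1 below both in 9 (Slc12a4, Slc12a5, Slc12a7, Slc17a6, Slc25a24, Slc35f5, Slc37a2, Slc43a3 and Slc52a3). None of the other 5 arrays stood at least 1 above or below both others of its group in any of the 68. The extreme value over the 6 arrays was not more often its own: it held the highest or lowest value in 24 of the 68, while 2D11 replicates 1, 2 and 4 did in 14, 19 and 27 and OvacD8 replicates 2 and 3 in 20 and 32. In 15 it lay within or beyond the 2D11 range while both other OvacD8 arrays lay outside that range on the same side. The stromal marker Lum moved with the other two OvacD8 arrays, between -0.03 and 0.01 on the 2D11 arrays and OvacD8 replicate 1 and at 5.29 and 5.34 on OvacD8 replicates 2 and 3, while Col1a1, Col1a2, Col3a1 and Dcn lay between -0.04 and 0.05 on the 6 arrays. The stromal list of 6 genes had means of 0.00, 0.03 and 0.00 on the 2D11 arrays, and 0.00, 0.84 and 0.90 on the OvacD8 arrays. The macrophage marker Cd68 was also high on OvacD8 replicates 2 and 3, at 3.34 and 3.44. Lyz2, Csf1r and Mpeg1 were not high there: Lyz2 had -1.91 and -2.82, Csf1r -0.01 and 0.00, and Mpeg1 0.14 and -0.14. The part of other cells in these differences was not tested.

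**Figure D5:**
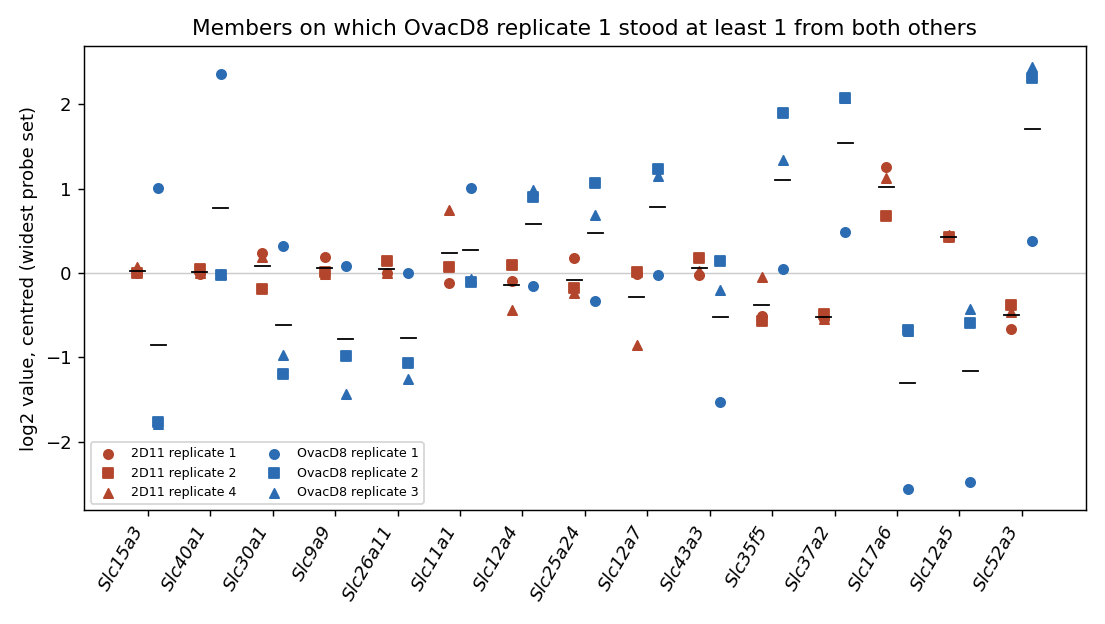
Centred log2 values of the widest probe set on each array for the 15 genes on which OvacD8 replicate 1 stood at least 1 from both other OvacD8 arrays, with 2D11 in red left of OvacD8 in blue, a shape for each replicate and a bar at each group mean. For Slc15a3 OvacD8 replicate 1 is at 1.01 and the other two near -1.8, and for Slc52a3 it is at 0.38 and the others are above 2.3.

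Besides the 68 genes, other transporters and partners were counted in 5 lists. The partners include Slc9a3r1 and Slc9a3r2, which by their symbols are also among the 287 solute carrier genes with less range. Of 41 ABC transporters, which use ATP to move lipids, peptides and drugs, 3 were higher and 3 lower in 2D11 cells, with a median difference of 0.004, beside 3.3% of all genes that were higher and 3.37% that were lower. Abca3, a phospholipid transporter known from lung surfactant, had 1.04, 0.99 and 0.84 on 2D11 replicates 1, 2 and 4, against -0.77, -0.72 and -0.74 on OvacD8 replicates 1, 2 and 3, a difference of 1.70 ± 0.06 (adjusted p = 0.000373). The groups were each tight and lay far apart on the mean of its 3 probe sets, which differed by 0.05 to 2.91. Abcb9, a peptide transporter of the lysosome, had a difference of -3.05 ± 0.57 (adjusted p = 0.0483), and Abcb1a, the drug efflux pump P-glycoprotein, of -1.69 ± 0.32 (adjusted p = 0.0494). Both lost the call without 2D11 replicates 1 or 4 or OvacD8 replicates 2 or 3, and Abcb9 also without 2D11 replicate 2.

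Of 34 P-type ATPases, 1 was higher and 4 were lower, with a median difference of 0.005, beside 3.3% of all genes higher and 3.37% lower. The largest were Atp8b4 at -1.70 ± 0.18, Atp10a at -1.08 ± 0.05 and Atp11b at -0.99 ± 0.09, 3 genes of the family of phospholipid flippases (adjusted p = 0.0109, 0.000756 and 0.00756). Atp8b4 lost the call without 2D11 replicate 1 or OvacD8 replicate 3. Of 11 measured partners and regulators of solute carriers, 1 passed. It was Emb, embigin, a chaperone that brings monocarboxylate transporters to the plasma membrane. Emb had 0.79, 0.83 and 1.00 on 2D11 replicates 1, 2 and 4, against -1.15, -0.71 and -0.70 on OvacD8 replicates 1, 2 and 3, a difference of 1.73 ± 0.15 (adjusted p = 0.00528). None of 7 measured genes of metal handling and none of 8 of nucleoside metabolism passed the limma test. In all, 12 genes of these lists passed, and 6.67% of all genes did.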

How the data were processed

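The labels' protocols state RNeasy extraction, amplification with the Ovation system and biotin labelling. The authors deposited 1 table of 45101 probe sets by 6 arrays, made with RMA per the submitters' processing notes, with no version stated. The log2 values the authors deposited are RMA values centred by probe set, although neither the base nor the centring is stated in the sources used here. The widest probe set spanned 11.37. Each probe set had a median within 5.0e-07 of 0, so levels had been removed. RMA draws dim probe sets together, and 34.4% spanned less than 0.1. The number of arrays limits the precision.

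Control probe sets (64) and those with several symbols (932) or none (9160) were left out. A gene's value was the mean of its probe sets. Symbols were checked by Entrez identifier against RefSeq (GRCm38.p6), which changed 0 of 34741. The groups, taken from the titles, were compared with limma 3.58.1 in R 4.3.3 (lmFit and eBayes, two-sided, Benjamini-Hochberg). Genes at an adjusted p under 0.05 passed. Differences are 2D11 minus OvacD8. Tested on simulated data (18193 genes, log2 scale), it recovered 67 of 100 genes with a difference of 1 and 92 of 100 with a difference of 2, and called 16 of 17993 unchanged genes. The simulated noise was normal, independent and of the same spread in both groups, with changes only in genes spanning 0.1 or more. No simulated array stood apart as OvacD8 replicate 1 did, so these rates need not hold for the series.

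The members, substrate groups and lists were chosen with earlier results of these data known. Full statistics are given for members that passed, the widest member of each group in which none passed, and up to 3 genes of each list. Other members were singled out after their values were seen. The alternatives were leaving out each array, a replicate block, other choices of probe sets, genes, scaling, variance model and member range, a spike-in term and array weights.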

Additional observations from a re-analysis of the deposited data

How the results depend on the processing

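Over the 6 fits that each left out 1 array, members higher in 2D11 numbered 2 to 15 and lower 4 to 19. Those at least 2-fold apart numbered 3 to 16, and passing genes of the related lists 6 to 27. The highest counts came without OvacD8 replicate 1, where 17.2% of all genes passed. In the other fits 2.87% to 3.83% of all genes passed. Numbers 1 and 2 occur in both groups, but the labels do not tie them to a shared source (deviations correlated at -0.040 and 0.214). Under the replicate block these 4 counts were 0, 0, 0 and 3 (1.11% of all genes passed). In that fit 2D11 replicate 4 and OvacD8 replicate 3 share their number with no other array. The difference there rests on the 2 pairs numbered 1 and 2 alone. There 31 members (45.6%) and 15.7% of all genes had an unadjusted p under 0.05, a share not counted over genes of like range. Array weights, whose estimation stopped before it converged, gave 23, 29, 18 and 48, and 40.6% of all genes passed. A term for the spike-in split sets OvacD8 replicate 1 alone against 2D11; then 9 were higher, 10 lower and 9 at least 2-fold (7.48% of all genes passed), 9 of the 11 members kept their call, and Slc35a5 (0.102) and Slc37a1 (0.119) lost it. Testing genes that span 0.1 or more gave 7 higher and 10 lower (11.8% of those genes passed). Requiring a range of 1.5 or more left 25 members, with 1 higher and 3 lower, beside 3.3% and 3.37% of all genes. Shares over all genes of that range were not counted, so these counts are not read as a result about the members. Slc15a3 turned to -0.99 with the spike-in term and Slc25a32 to 0.29 with array weights. The causes were not tested. Median centring and robust variances kept all 11 calls, the widest probe set lost Slco3a1, and leaving out probe sets that may match several genes (identifiers ending in _x_at or _s_at) lost Slc35a5. Signal over background cannot be read from centred values.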

Other observations

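A probe set that carries the symbols of both Slc28a2 and Slc28a2b, concentrative nucleoside transporters, belongs to no single gene and entered no comparison. It had -0.56, -0.52 and -0.70 on 2D11 replicates 1, 2 and 4, against 0.52, 0.88 and 0.55 on OvacD8 replicates 1, 2 and 3. Of the 6 solute carrier probe sets with several symbols it was the only 1 that spanned at least 1.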
